A study of Mus musculus with 18 samples.

Results

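Genes of intestinal iron uptake and storage, 9 in all, were followed in ileal cells of mice fed chow or a high-fat diet (HFD) and, on HFD, with or without intestinal deletion of Pgc1α. They were Slc11a2, Slc40a1, Cybrd1, Heph, Tfrc, Fth1, Ftl1, Epas1 and Ireb2, chosen by gene name on the array and read at the brightest probe of each gene. All 9 passed the filter on dim probes, among 21544 gene names that passed of 37074 on the array. The samples were 18 one-colour microarrays, 6 from each of 3 groups. Mice labelled iPGC1afl/fl carry loxP sites around early exons of Ppargc1a and no Cre, and were fed chow (fl/fl chow) or HFD (fl/fl HFD). Mice labelled iPGC1a-/- carry the same floxed gene with Cre under the Villin promoter, which is active in the intestinal epithelium, and were fed HFD (iPGC1a-/- HFD). All mice were on the C57BL6/J background, started at 8 weeks of age and were fed for 8 weeks, with HFD supplying 42% of energy as fat with 0.2% cholesterol. They were killed fasted, 3 h after lights on, and cells were released from the ileum by chelation. The iron content of chow and of HFD is given neither in the labels nor in the study's methods. The deletion is limited to cells in which Villin drives Cre, while the fraction also holds lymphocytes. Chow-fed iPGC1a-/- mice are not analysed here, and diet in the deleted mice and genotype on chow therefore have no comparison.

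Enterocytes take up dietary iron after reduction at the brush border by Cybrd1 (duodenal cytochrome b) and import it through Slc11a2 (DMT1). Iron is then kept in ferritin, a shell of the heavy chain Fth1 and the light chain Ftl1, or leaves the cell through Slc40a1 (ferroportin) with the help of the ferroxidase Heph (hephaestin). Tfrc brings transferrin-bound iron in from the blood side. Iron regulatory proteins, of which Ireb2 encodes one, bind stem-loops in the messages of ferritin, ferroportin and the transferrin receptor, and Epas1 encodes HIF2α, a hypoxia-inducible factor known to drive Slc11a2, Cybrd1 and Slc40a1 in the duodenum.

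The share of probes well above background was 56.3% to 62.3% per array and no spot was saturated. The targeted gene Ppargc1a had mean log2 signals of 10.94 ± 0.46 in fl/fl chow, 11.38 ± 0.07 in fl/fl HFD and 11.67 ± 0.26 in iPGC1a-/- HFD (SD, n = 6 each), which were not lower in the deleted group. Its probes lie downstream of the deleted early exons and therefore do not check the deletion. Directions by genotype below refer to the labels. All 8 enterocyte markers were measured, and the sum of their signals was 689166 to 839720 in fl/fl chow, 853072 to 991037 in fl/fl HFD and 922100 to 1099833 in iPGC1a-/- HFD. T cell markers were present as well. The endothelial markers Cdh5, Kdr and Tek were not well above background on any array. Pecam1, the remaining endothelial marker, was well above background on 6 of 6 arrays in each group, with means of 5.85 in fl/fl chow, 5.97 in fl/fl HFD and 6.08 in iPGC1a-/- HFD. In a mixture of cells such as this one, fewer cells of a type and less RNA per cell cannot be told apart. The study treats each array as 1 animal, although the labels only number them.

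The array reads each member with one or more 60-base probes, 18 in all, placed on mouse build mm9 by the scanner files. The probes below are shown because several genes gave different answers from different probes. Those that hold AATAAA, the signal that precedes the poly(A) tail, are given by their last 30 bases with those letters in capitals. Exon and UTR placement of the probes was not checked against an annotation. Of the 18 probes of the members 3 hold it, against 9.77% of the 56605 probes of the array.
Slc40a1 (A_51_P389988, chr1:45965255-45965314, minus strand): cctttcaatatccctgagaagAATAAAgaa
Ftl1, brightest (A_55_P2851873, chr7:52713318-52713377, minus strand): ggaccaagtaaaAATAAAgctttttgagac
Slc11a2 (A_51_P388737, chr15:100218333-100218392, minus strand): ttgttatAATAAAgttcatgcttaatagct
The next 3 probes are given whole, since each starts nearer the 5′ end of its transcript than another probe of the gene. By the transcript positions in the scanner files they start at base 462 against 906 for Ftl1, 253 against 2961 for Slc11a2 and 1228 against 4288 for Tfrc.
Ftl1, dimmer (A_55_P1983959, within chr7:52714014-52714495, minus strand, a genomic span longer than the probe): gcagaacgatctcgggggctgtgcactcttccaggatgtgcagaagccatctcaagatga
Slc11a2, nearer the 5′ end (A_52_P254298, chr15:100240516-100240575, minus strand): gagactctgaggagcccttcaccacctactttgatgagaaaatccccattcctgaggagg
Tfrc, brightest (A_65_P06446, chr16:32620470-32620529, plus strand): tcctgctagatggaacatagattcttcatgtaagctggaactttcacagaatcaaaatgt

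On HFD, floxed mice had less message of the iron exporter Slc40a1 and more of the ferritin light chain Ftl1 and of the iron regulatory protein gene Ireb2. These 3 of the 9 genes passed the test between fl/fl HFD and fl/fl chow (limma, Benjamini-Hochberg adjusted p of 0.05 or lower), with 2 higher and 1 lower. Over the whole array 24.6% of the genes tested passed, with 10.4% higher and 14.2% lower. Slc40a1 was the 1 member that also differed by more than 1.5-fold, which 8.42% of all genes did, and 2 members, Slc40a1 and Ftl1, did not overlap between the groups, as for 10.4% of all genes. Of the called probes 43.0% were higher, against 54.9% or 59.97% when each array was scaled by its 75th percentile, and the 3 members kept their direction and call under both scalings. The median log2 fold change was 0.10 over the 9 genes and 0.00 over all genes. Transporters of the brush border (Cybrd1, Slc11a2) and Heph did not pass, with intervals given below.

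**Figure D1:**
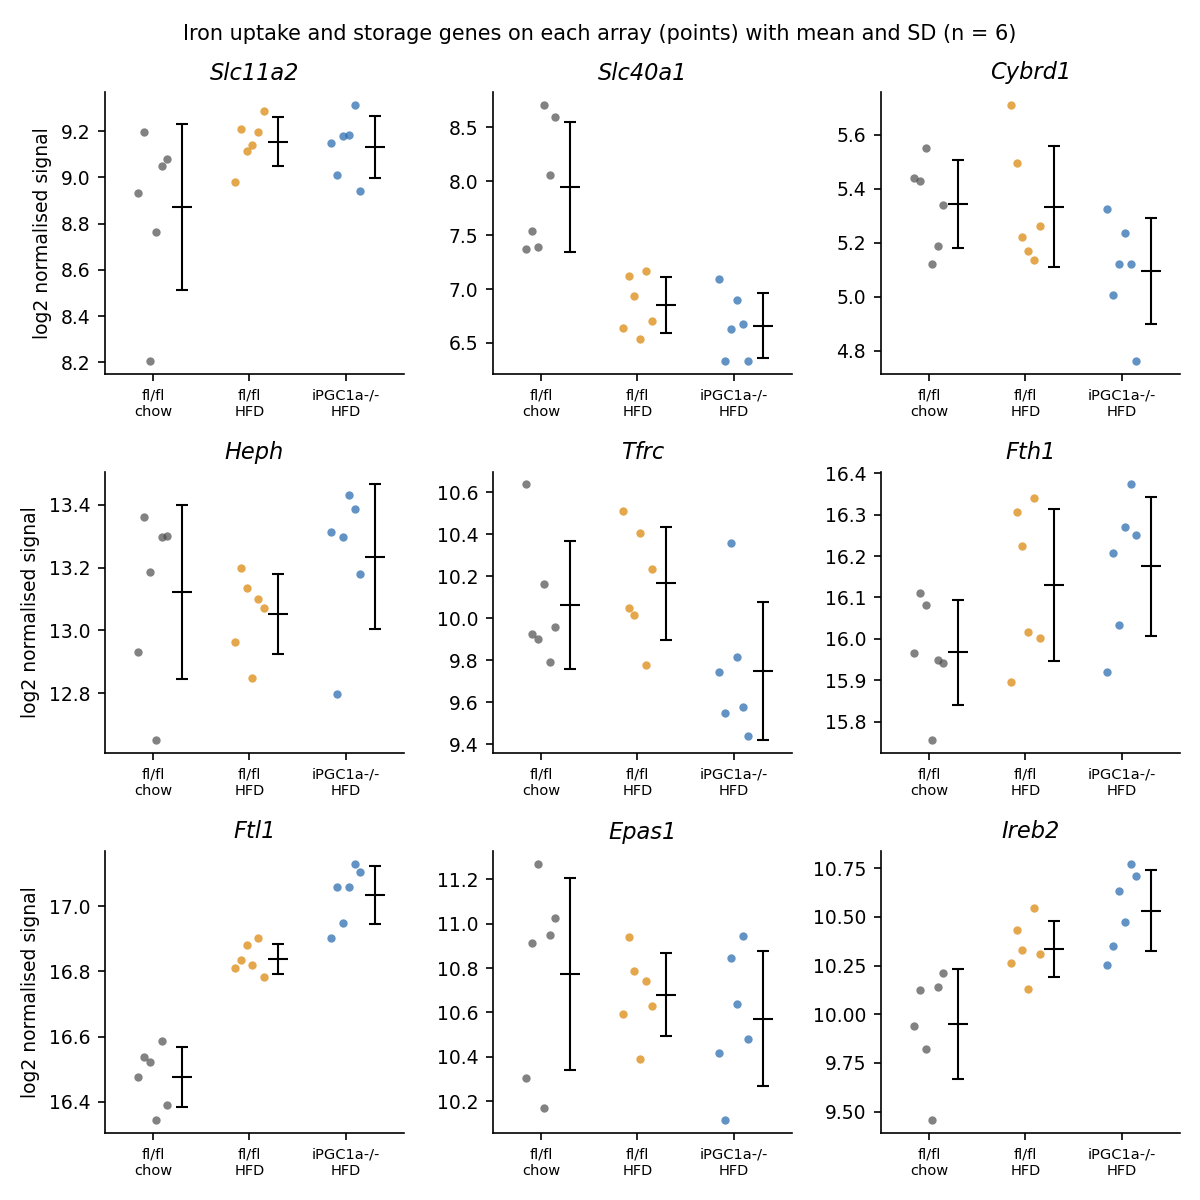
The log2 normalised signal of each gene on each array, by group (points, 6 arrays a group), with the mean and SD beside them; each panel has its own axis, which does not start at 0. Slc40a1 is higher on every fl/fl chow array (7.37 to 8.71) than on any HFD array, and Ftl1 is lower on every fl/fl chow array (16.34 to 16.59) than on any other.

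The ferritin light chain gave the tightest values of the 9 genes. Ftl1 signals ranged from 16.34 through a median of 16.50 to 16.59 in fl/fl chow, from 16.78 through 16.83 to 16.90 in fl/fl HFD, and from 16.90 through 17.06 to 17.13 in iPGC1a-/- HFD. Every fl/fl HFD array was above every fl/fl chow array, and only the lowest iPGC1a-/- array fell below the highest fl/fl HFD array, both at 16.90 after rounding. The diet difference was 0.36 on the log2 scale (SE 0.06, 1.29-fold, adjusted p = 0.000385). Arrays that share a scan date in the file headers are called a slide here, which the labels do not name. Each of the 3 slides held 2 arrays of each group. On them the diet difference of this probe was 0.37, 0.36 and 0.36. The dimmer Ftl1 probe rose by 0.41 (SE 0.09, adjusted p = 0.00227), although its groups overlapped and it no longer passed on the arrays of slides 2 and 3 alone (0.34, adjusted p = 0.0554).

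Fth1, the heavy chain that oxidises iron as it enters ferritin, did not pass. Its signals were 15.75 to 16.11 with a median of 15.96 in fl/fl chow, 15.90 to 16.34 with a median of 16.12 in fl/fl HFD, and 15.92 to 16.37 with a median of 16.23 in iPGC1a-/- HFD. The groups overlapped, and the diet difference was 0.16 with a 95% confidence interval from -0.03 to 0.36 (adjusted p = 0.227). Both ferritin probes were among the brightest on the array without being flagged as saturated, with raw medians of 50329 to 108694 for Fth1 and 86732 to 167299 for Ftl1. Ferritin genes have processed copies elsewhere in the genome, and whether these add to the probes' signals was not tested.

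The largest diet difference among the 9 genes was that of Slc40a1, the only known cellular iron exporter. Its signals were 7.37 to 8.71 with a median of 7.80 in fl/fl chow, 6.54 to 7.17 with a median of 6.82 in fl/fl HFD, and 6.33 to 7.09 with a median of 6.65 in iPGC1a-/- HFD. Neither HFD group reached the lowest fl/fl chow array, and the fl/fl chow arrays were the most spread (SD 0.60, against 0.26 and 0.30). Slc40a1 fell by 1.09 on the log2 scale with HFD (SE 0.22, 95% confidence interval from -1.54 to -0.64, adjusted p = 0.000974), to 0.469 times its signal on chow. That ratio holds for median signals from which the local background was not subtracted. Across settings other than leaving out an array the difference ran from -1.62 to -0.89, and it passed in each.

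The size of the Slc40a1 difference varied between slides. It was -0.23 on slide 1, -1.54 on slide 2 and -1.50 on slide 3. On slide 1 the chow arrays lay at 7.37 and 7.39 and the HFD arrays at 7.12 and 7.17. A further chow array near these, at 7.54, was on slide 3. With slide 1 left out the difference was -1.62 (adjusted p = 0.000423). A further Slc40a1 probe was well above background on 3 fl/fl chow arrays and on no HFD array, and so was not tested.

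**Figure D2:**
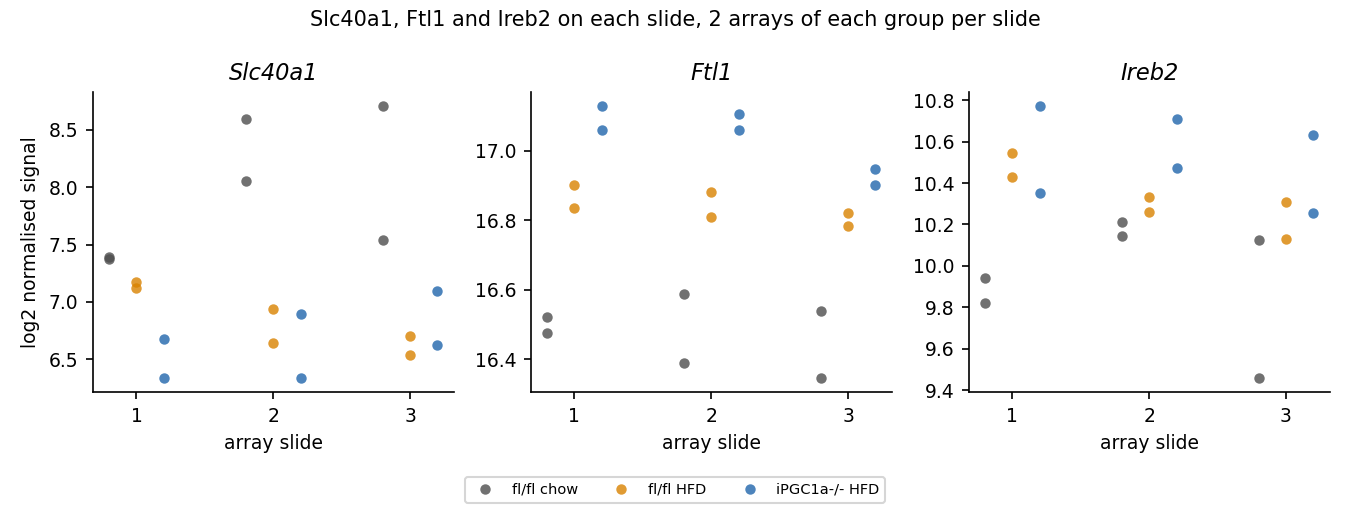
Slc40a1, Ftl1 and Ireb2 signals (log2 normalised, own axis per panel) on each of the 3 slides, told apart by scan date. There are 2 arrays of each group per slide and one point per array. The chow and HFD points of Slc40a1 lie close on slide 1 and far apart on slides 2 and 3, whereas those of Ftl1 are about equally far apart on all 3.

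Markers of other cell types moved with diet in the same arrays. All 4 tested T cell markers, 3 of 3 B cell, 3 of 3 plasma cell and 4 of 4 goblet cell markers were lower in fl/fl HFD. So were 6 of 7 cycling-cell markers, beside 14.2% of all genes. The marker lists were chosen with earlier results of these data known. Of the other lists, 1 of 4 Paneth, 1 of 3 enteroendocrine and 1 of 2 tuft cell markers were lower, 2 of 8 enterocyte markers were higher, and none of the tested stem cell (4), smooth muscle (3), fibroblast (2), endothelial (1) and erythroid (1) markers passed. The sum of 3 T cell signals was 10510 to 40349 in fl/fl chow, 3908 to 7433 in fl/fl HFD and 4780 to 9104 in iPGC1a-/- HFD. Macrophages, which recycle iron and are known to hold much ferroportin, were represented by 5 tested markers of 8, of which 2 were lower, and Adgre1 was not well above background on any array. Their summed signal was 671 to 795 in fl/fl chow, 616 to 750 in fl/fl HFD and 574 to 795 in iPGC1a-/- HFD, with the groups overlapping. The chow array with the lowest T cell sum (10510) had a Slc40a1 signal of 8.60, and that with the highest (40349) had 7.54. The chow array with the highest Slc40a1 signal (8.71) had the highest cycling-cell sum (20020) and the lowest enterocyte sum (689166) of the chow arrays. The array at 8.60, next to it in Slc40a1, had a cycling-cell sum of 11809 and an enterocyte sum of 805744, both within the range of the other chow arrays. The part of these cell types in the Slc40a1 difference was not tested.

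Heph, which oxidises exported iron for binding to transferrin, had signals of 12.65 to 13.36 in fl/fl chow with a median of 13.24. They were 12.85 to 13.20 with a median of 13.09 in fl/fl HFD and 12.80 to 13.43 with a median of 13.31 in iPGC1a-/- HFD. The groups overlapped throughout, and the diet difference was -0.07 (95% confidence interval from -0.32 to 0.18, adjusted p = 0.727), with a positive sign when arrays were scaled by their 75th percentile (0.10 and 0.07). A dimmer Heph probe elsewhere in the gene gave -0.03.

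At the brush border, the reductase Cybrd1 was close to the detection limit of the array in ileum. Raw medians of its brightest probe were 25 to 56 over a local background of 17 to 23, and its other probe was not well above background on any array. Its signals were 5.12 to 5.55 (median 5.38) in fl/fl chow, 5.14 to 5.71 (median 5.24) in fl/fl HFD and 4.76 to 5.33 (median 5.12) in iPGC1a-/- HFD, where 4 of 6 arrays were well above background. The diet difference was -0.01 with a 95% confidence interval from -0.24 to 0.22, and its sign turned under several scalings. Known markers of the proximal gut, where most dietary iron is absorbed, were higher in fl/fl HFD for Lct (1.05, adjusted p = 0.00526) and Fabp1 (0.88, adjusted p = 0.0068). The study itself reports that this diet raised Fabp1 message in the intestine. Whether these differences reflect gut segment or diet was not tested. Gata4 differed by -0.05 and did not pass, and the ileal bile acid transporter gene Slc10a2 fell by 1.07 (adjusted p = 0.023). Fabp6, the other ileal marker, differed by -0.11 and did not pass.

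Slc11a2, the importer of ferrous iron, gave different answers by probe. At the brightest probe signals were 8.21 to 9.20 (median 8.99) in fl/fl chow, 8.98 to 9.29 (median 9.17) in fl/fl HFD and 8.94 to 9.31 (median 9.16) in iPGC1a-/- HFD. The groups overlapped, with the lowest chow array (8.21) well below the others, and the diet difference of 0.28 did not pass (SE 0.12, adjusted p = 0.11). It did pass without fl/fl chow replicate 2 (0.36, adjusted p = 0.0443) and when the 4 probes were averaged (0.27, adjusted p = 0.0294). With slide 1, which held the lowest chow array, left out, the difference at the brightest probe was 0.0090 (adjusted p = 0.97).

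Messages of Slc11a2 end at alternative 3′ exons, one form of which carries an iron-responsive element, and the array assigns its probes to different transcripts. Probe A_52_P196476 (chr15:100223347-100223406), which the array assigns to one RefSeq transcript only, rose by 0.41 on HFD (SE 0.12, adjusted p = 0.0195). That call was lost without fl/fl chow replicate 3 (adjusted p = 0.063), without fl/fl HFD replicate 4 (adjusted p = 0.0544) and on slides 2 and 3 alone (adjusted p = 0.317). The probe that holds AATAAA differed by 0.37 (adjusted p = 0.0866). Like the brightest probe, it is assigned to the other RefSeq transcript and to predicted forms. The probe nearer the 5′ end, which the array assigns to both RefSeq transcripts, differed by 0.04 (95% confidence interval from -0.17 to 0.24). The differences between these probes were not themselves tested.

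**Figure D3:**
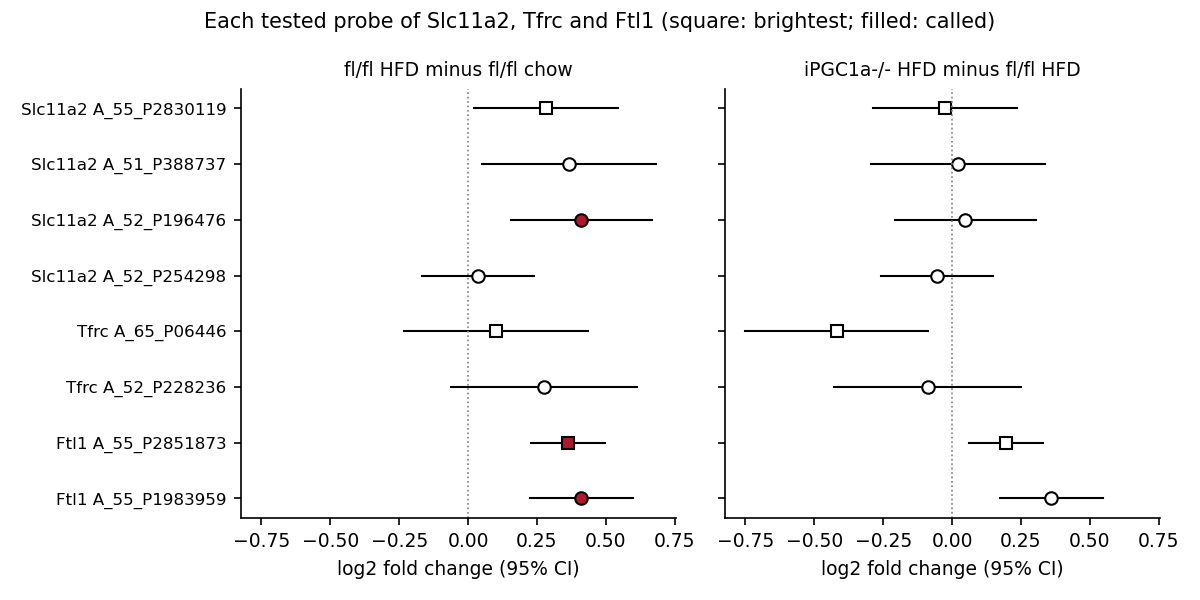
Log2 fold change with its 95% confidence interval at every tested probe of Slc11a2, Tfrc and Ftl1, for diet (left) and genotype (right); squares mark the brightest probe of a gene and filled symbols an adjusted p of 0.05 or lower. Both Ftl1 probes and the Slc11a2 probe at 0.41 are filled for diet, and no probe is filled for genotype.

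Tfrc, the transferrin receptor through which crypt cells take iron from the circulation, did not differ beyond its spread with diet. Its signals were 9.79 to 10.64 (median 9.94) in fl/fl chow and 9.78 to 10.51 (median 10.14) in fl/fl HFD, and the difference was 0.10 (95% confidence interval from -0.23 to 0.43, adjusted p = 0.688). A probe further towards the 3′ end gave 0.28 (adjusted p = 0.234).

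Among the regulators, Ireb2 signals were 9.46 to 10.21 (median 10.03) in fl/fl chow, 10.13 to 10.55 (median 10.32) in fl/fl HFD and 10.25 to 10.77 (median 10.55) in iPGC1a-/- HFD. The floxed groups overlapped between 10.13 and 10.21, while the chow and iPGC1a-/- groups did not overlap. Ireb2 rose by 0.38 with diet (SE 0.12, 1.31-fold, adjusted p = 0.0253), by 0.61, 0.12 and 0.43 on slides 1 to 3. The call was lost without fl/fl HFD replicate 2 (adjusted p = 0.052), fl/fl HFD replicate 5 (0.0706), fl/fl chow replicate 3 (0.06) or fl/fl chow replicate 4 (0.0659), and on slides 2 and 3 alone, where the difference was 0.19 (adjusted p = 0.468).

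Epas1 did not pass. Its signals were 10.17 to 11.27 (median 10.93) in fl/fl chow, 10.39 to 10.94 (median 10.68) in fl/fl HFD and 10.12 to 10.94 (median 10.56) in iPGC1a-/- HFD. The chow arrays enclosed all arrays of fl/fl HFD, and the difference was -0.09 with a 95% confidence interval from -0.45 to 0.26.

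**Figure D4:**
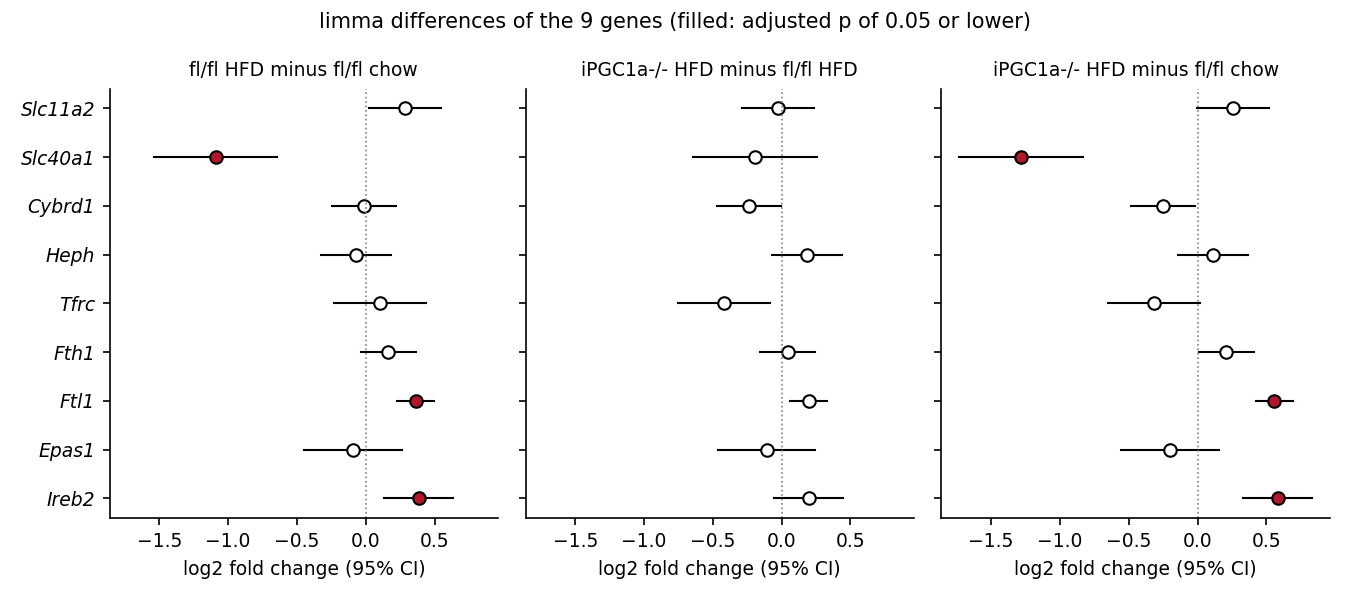
Log2 fold change with its 95% confidence interval for the 9 genes in the 3 comparisons, filled where the adjusted p was 0.05 or lower. Slc40a1, Ftl1 and Ireb2 are filled in both comparisons with fl/fl chow, and none of the 9 is filled between the genotypes on HFD.

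Deletion of Pgc1α on HFD was not followed by a called difference in any of the 9 genes. Between iPGC1a-/- HFD and fl/fl HFD, 0 of 9 passed by limma, where 0.227% of all genes passed (0.065% higher, 0.162% lower, and 0.135% with a change above 1.5-fold), and 3 of 9 had an unadjusted p under 0.05, beside 2000 of the 21544 genes tested. These were Ftl1, Tfrc and Cybrd1. The median log2 fold change was -0.02 over the members and 0.01 over all genes.

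Ftl1 was 0.20 higher in iPGC1a-/- HFD at its brightest probe (SE 0.06, 95% confidence interval from 0.06 to 0.33, adjusted p = 0.357), by 0.23, 0.24 and 0.12 on the 3 slides. At its dimmer probe signals were 13.25 to 13.54 in fl/fl chow, 13.54 to 13.96 in fl/fl HFD and 13.97 to 14.35 in iPGC1a-/- HFD. Every iPGC1a-/- array was above every fl/fl HFD array at that probe, while at their brightest probes 0.961% of all genes did not overlap in either direction. The difference of 0.36 did not pass the adjustment (SE 0.09, adjusted p = 0.16). None of the tested cell type markers passed between the genotypes.

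Tfrc was at 9.44 to 10.36 (median 9.66) in iPGC1a-/- HFD, and 5 of its 6 arrays lay below the fl/fl HFD median. The difference was -0.42 at the brightest probe (SE 0.16, adjusted p = 0.428) and -0.09 at the probe further towards the 3′ end. On the slides the brightest probe differed by -0.35, -0.64 and -0.27. Cybrd1 differed by -0.24 (adjusted p = 0.51), with 4 of 6 iPGC1a-/- arrays well above background. Across the other settings that kept all arrays or left out a slide its difference ran from -0.85 to -0.14, and it did not pass in any of them.

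None of the other 6 genes reached an unadjusted p of 0.05 between the genotypes. Heph differed by 0.18 (95% confidence interval from -0.07 to 0.44) and Ireb2 by 0.20 (95% confidence interval from -0.05 to 0.45). Slc40a1 differed by -0.19, with a confidence interval from -0.64 to 0.26 that leaves room for a sizeable change either way, and by 0.02 without slide 1. Values for Epas1, Fth1 and Slc11a2 were -0.11, 0.04 and -0.02.

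Between iPGC1a-/- HFD and fl/fl chow, which differ in diet and genotype at once, the same 3 genes passed, where 36.8% of all genes passed (16.8% higher and 20% lower). Slc40a1 alone also passed 1.5-fold, as did 11.8% of all genes. Slc40a1 fell by 1.28 (SE 0.22, adjusted p = 0.000147), Ftl1 higher by 0.56 (SE 0.06, adjusted p = 2.95e-06) and Ireb2 higher by 0.58 (SE 0.12, adjusted p = 0.000983). None of the 3 overlapped between these groups, as for 16.2% of all genes. This comparison shares its chow arrays with the diet comparison and its iPGC1a-/- arrays with the genotype comparison, so it adds no separate samples. Ireb2 missed the threshold on slides 2 and 3 alone (0.44, adjusted p = 0.0505).

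RefSeq promoter windows, 250 bases before to 50 after the start of transcription on build GRCm38.p6, were matched for 5 of the 9 genes, namely Cybrd1, Tfrc, Fth1, Ftl1 and Ireb2. They were searched on both strands for ACGTG and GCGTG, the core letters of the element that hypoxia-inducible factors bind. Of their 7 windows 5 held a match, as did 43.8% of all 32851 windows. Ireb2 and one of the Fth1 windows held none. The stretches around the single matches of Ftl1, which passed the diet test, and of Cybrd1, which did not, are given with the match in capitals and without transcribed bases.
Ftl1 (chr7:45459902-45459961, minus strand): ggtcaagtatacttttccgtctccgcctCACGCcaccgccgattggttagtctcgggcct
Cybrd1 (chr2:71117865-71117924, plus strand): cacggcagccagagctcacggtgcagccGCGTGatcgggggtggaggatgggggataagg
Counted from the start of transcription, the matches lie at -47 in Ftl1 and -161 in Cybrd1. They describe letters only, and binding at them was not measured.

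Beyond the members, 84 genes of iron handling and oxygen sensing were listed and 74 passed the filter. The lists were chosen with earlier results of these data known, so the counts by list, here and below, are a description and not a test. In the diet comparison 23 of the 74 passed (13 higher, 10 lower; median 0.07), beside 24.6% of all genes (10.4% higher, 14.2% lower). In the genotype comparison 0 passed. Of 16 tested genes of transport and systemic control 1 was higher and 6 were lower. Flvcr1, which exports heme, rose from a median of 9.99 to 11.24 with groups apart (log2 fold change 1.32, adjusted p = 5.11e-05). Slc39a8, a zinc carrier that also takes iron, fell by 1.01, Lcn2 (lipocalin that binds bacterial siderophores) by 0.90, the heme transporter Slc48a1 by 0.41, and the metalloreductases Steap1 and Steap2 by 0.63 and 0.53. Meltf (melanotransferrin) was at 6.37 to 8.28 in fl/fl chow and well above background on 1 of 6 fl/fl HFD arrays and on no iPGC1a-/- array. It passed the filter through fl/fl chow alone. Its place among the 6 lower genes therefore follows in part from that selection, and its p-value is not given. As a description, its signal was at least 5.20-fold lower in iPGC1a-/- HFD than in fl/fl chow. That bound holds for the normalisation used here, and the fitted diet difference of Meltf ran from -4.28 with processed signals to -1.55 after normexp. The peptide hormone gene Hamp (hepcidin), Tfr2 and 6 more genes of this list did not pass the filter.

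Regulation by iron and oxygen showed 3 of 10 genes higher and none lower, beside 10.4% higher and 14.2% lower over all genes. Aco1, which encodes the other iron regulatory protein, rose from 12.06 to 12.38 in fl/fl chow to 12.77 to 13.26 in fl/fl HFD, without overlap (0.86, SE 0.09, adjusted p = 2.47e-06). Egln3, a prolyl hydroxylase induced by hypoxia, rose by 1.64 (adjusted p = 3.3e-05), and Arnt, the partner of the hypoxia-inducible factors, by 0.27 (adjusted p = 0.0232). Of 14 hypoxia-induced genes, a list that also holds Egln3, 4 were higher and 2 lower. Bnip3 and Ndrg1 rose by 1.48 and 0.59 and Bnip3l by 0.22, while the glucose transporter Slc2a1 and the peptide gene Adm fell by 0.66 and 0.67. The list therefore moved in both directions, with a median of 0.10.

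Of 13 genes of cytosolic iron handling and heme breakdown 4 were higher and none lower, beside 10.4% higher and 14.2% lower over all genes. Slc25a37 (mitoferrin 1), which carries iron into mitochondria, rose by 0.65 (adjusted p = 0.00109), and the genes of heme breakdown Hmox2, Blvra and Blvrb by 0.28, 0.30 and 0.41. Ncoa4, which delivers ferritin to the lysosome, differed by 0.29 without passing (adjusted p = 0.0873). Of 8 heme synthesis genes Ppox alone passed (0.24, adjusted p = 0.0466). Of 14 genes of iron-sulfur cluster assembly, Iscu, the assembly scaffold, rose by 0.20 and the chaperone Hspa9 fell by 0.38. The calls of Ppox, Iscu, Bnip3l and Slc48a1 were lost in 16, 14, 11 and 9 of 32 alternative settings. Those of Hspa9, Arnt and Blvra were lost in 4, 3 and 2, and those of Slc25a37 and Ndrg1 in 1 each.

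**Figure D5:**
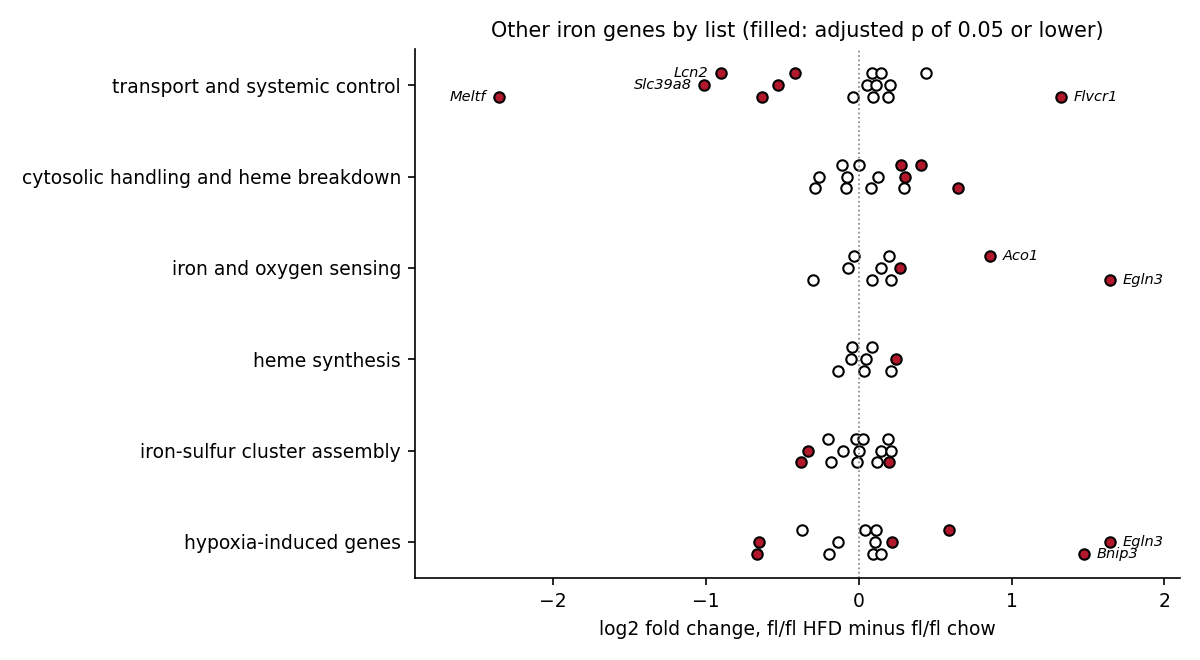
Diet log2 fold change of the 74 other iron genes tested, by list, filled where the adjusted p was 0.05 or lower and named where a filled value was beyond 0.8 in size; height within a list has no meaning and Egln3 stands in 2 lists. Filled points lie mostly on the negative side for transport and systemic control (6 of 7) and on the positive side for cytosolic handling (4 of 4). The negative ones include Meltf, which passed the filter through fl/fl chow alone. Over all genes 10.4% passed as higher and 14.2% as lower, and the lists were chosen with earlier results of these data known.

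Genes whose signals most resembled the called members over the 18 arrays were ranked by Pearson's r, which partly restates the group differences. Slc40a1 was closest to Smad1 (r = 0.94), Wtip (0.94) and Hk2 (0.93) and most opposed to D130079A08Rik and Acot12 (both -0.91). Ftl1 was closest to Abcc2, Cyb5r3 and Fam149b (all 0.96) and most opposed to Osbpl7 (-0.96). Ireb2 was closest, after an expressed sequence tag without a gene name (0.96), to Sec23a (0.95) and Ncoa4 (0.94) and most opposed to Hebp2 (-0.94).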

How the data were processed

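Ileal cells of 18 samples were profiled on Agilent SurePrint G3 mouse arrays. Per the file headers, images were read with Agilent Feature Extraction 10.10.1.1 and probes annotated on mm9. The deposited scanner files give spot intensity (median signal), local background and flags for spots above background, saturated or outlying, none of which the authors had normalised. The authors also deposited a table of normalised log2 values, which was used as an alternative. It correlated with the log2 scanner medians at r of 0.9997 to 1 per array. Median signals were taken to log2. A probe was kept where the scanner called it above background on 5 or more of the 6 arrays in any group (32728 of 56605 probes). This filter was chosen here, since the study's methods name a filter without its rule. Kept probes were normalised by smooth quantile normalisation, as in those methods (own code in R 4.3.3, window 0.05). One limma 3.58.1 model with 3 groups gave the contrasts, and p-values were adjusted by Benjamini and Hochberg over all probes kept. A gene was called at an adjusted p of 0.05 or lower at its brightest probe. The array number limits the precision. Washing and labelling batches, which the study corrected for, are not in the labels. A slide here means the arrays that share a scan date in the file headers, and each of 3 such sets held 2 arrays of each group. Confidence intervals are 95% intervals of the fit. Figures used matplotlib.

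The members and the lists of other iron genes and cell type markers were chosen with earlier results of these data known. Besides the members, text names the other listed iron genes called in the diet or genotype comparison, and a few that were not called. It also draws on the 5 closest and 2 most opposed genes by r, from which a few are given. The values of 1 listed iron gene are not reported here. Gene names are those of the array, updated through RefSeq symbols (Meltf is Mfi2 on the array). Fitting code was tested on simulated data. Alternatives covered the signal column, background correction, scaling, filter, slide and replicate blocks, samples in the fit, variance model, thresholds, averaging of probes and leaving out each array. The fit on slides 2 and 3 alone was chosen after seeing the data.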

Additional observations from a re-analysis of the deposited data

How the results depend on the processing

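Of the values of the 9 genes under settings other than leaving out an array, 114 of 125 kept their direction and side of the threshold for diet, 121 of 125 for genotype and 122 of 125 for diet and genotype together. With a fold change above 1.5 also required, 1 member (Slc40a1), 12 other iron genes and 1815 genes of the whole array passed for diet, 29 genes of the whole array for genotype, and 1 member for diet and genotype together. At an adjusted p of 0.01, 14 other iron genes and 3019 genes of the array passed for diet and 18 genes of the array for genotype. On slides 2 and 3 alone, a setting chosen after seeing the data, 10 genes of the array passed for genotype, and 22.0% of called diet probes were higher. The sign of small differences turned in these cases, and the cause was not tested. For diet, Cybrd1 was 0.13 and Heph 0.10 with processed signals, Cybrd1 0.12 and Heph 0.066 with median signals scaled to the 75th percentile, and Cybrd1 0.030 after normexp, 0.011 after quantile normalisation, 0.0085 in the authors' table, 0.0077 with array weights and 0.012 on slides 2 and 3. For genotype, Fth1 was -0.072 and -0.051 under the same 2 scalings, Slc11a2 was 0.017 at its brightest probe and -0.0027 at probe A_52_P196476 with array weights, and Slc40a1 was 0.019 on slides 2 and 3. For diet and genotype together, Slc11a2 was -0.010 on slides 2 and 3.

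Leaving out each array in turn gave 2 to 4 called members for diet, 0 for genotype and 3 to 5 for diet and genotype together, where 5 passed without iPGC1a-/- HFD replicate 1 (adding Cybrd1 and Fth1). Other iron genes called for diet ran from 16 to 24, and genes of the array from 4071 to 5826 for diet and from 26 to 58 for genotype. The diet difference of Cybrd1 ran from -0.095 to 0.020. The genotype difference of Slc11a2 ran from -0.076 to 0.017, that of its probe A_52_P196476 from -0.021 to 0.10, and that of Fth1 from -0.015 to 0.098.

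Arrays of the same replicate number deviated together in some pairs only. Correlations ran from -0.13 to 0.28 for diet and from -0.19 to 0.33 for genotype, 4 and 3 of 6 were over 0.1, and 3 and 2 of 6 were highest for the arrays' own number, which is a hint from the data and not from the design. The numbers were therefore not taken as pairs. With the replicate number as a block, 3 members passed for diet, 0 for genotype and 3 for diet and genotype together. Other iron genes called were 26 for diet and 0 for genotype, and genes of the array 5912 and 36.

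Cybrd1 and the dim probes lie near background, where small differences cannot be read. The batches of washing and labelling could not be modelled.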
